A study of Caenorhabditis elegans with 2 samples.

Results

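The genes described here encode the proteins of the cytosolic ribosome of Caenorhabditis elegans. They were chosen by name only, as every protein-coding gene of the Ensembl annotation of WBcel235 whose symbol is rpl- or rps- followed by a number, which gave 78 of 19973 genes. Of these, 47 belong to the large subunit (rpl) and 31 to the small subunit (rps). The measurement was transcription factor ChIP-seq on whole L2 larvae of pooled sexes, in 2 biological replicates of the strain OP355, which is mutant for unc-119(tm4063) and carries the transgene wgIs355. The strain, antibody and experiment labels give mdl-1 as the target, whereas a further label gives the tagged protein, with GFP-FLAG at its C-terminus, as KLU-1. It is called MDL-1 here, after the larger number of labels, which do not say what promoter drives the transgene. Both libraries form 1 group, no second condition and no control library were analysed here, and read depth is unknown because the files give regions and not reads.

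A ribosome is built from a small subunit, which decodes the messenger RNA, and a large subunit, which joins amino acids. Their proteins are needed in nearly equal amounts, and in growing animals their genes are among the most strongly transcribed. MDL-1 is the worm member of the Mad family, bHLH-Zip proteins that pair with a Max-like partner on the E-box CACGTG. In mammals Mad proteins oppose Myc, which promotes ribosome synthesis. Many worm genes are trans-spliced, so an annotated start can be the site where a leader is joined rather than the place where transcription begins.

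A gene was counted as having a promoter peak when the summit of a peak, its highest point, fell in a window reaching 1000 bp upstream and 200 bp downstream of 1 of its annotated starts. The optimal list is the authors' set of 1076 peaks that passed a reproducibility threshold, made from both replicates. It can hold a peak with no region in a replicate's own list, as described for rps-19 below. Its peaks are ranked by the signal value the authors' caller gave them. The list placed a promoter peak at 16 of the 78 ribosomal protein genes, or 20.5% (exact 95% binomial interval 12.2 to 31.2, counting error only), while 3.07% of all protein-coding genes had one. The 16 genes had 1 peak each, and no peak served more than 1 of them. Both subunits were represented in like shares, with 10 of 47 large subunit genes (21.3%) and 6 of 31 small subunit genes (19.4%). Members had 1 or 2 annotated starts, 1.22 on average against 1.47 for other genes, so members had fewer starts to search around. No test was made of these counts, because the genes were chosen with earlier results of the same data known, and they are described beside the background share only.

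The strongest peak of the group lay at rps-1, which encodes a protein of the small subunit near the exit path of the messenger RNA. It spanned 4475576 to 4475736 on chromosome III (WBcel235, ce11), ranked 71 of 1076 and had a signal of 194.3 in the authors' units. In the replicates' own lists, each of 30000 regions ranked by signal, the same place ranked 65 with a signal of 113 in replicate 1 and 96 with a signal of 84.2 in replicate 2. Signals are compared only within a list, since the scale of the lists is not stated. At rpl-3, whose protein lies close to the centre where peptide bonds form, the peak spanned 3867498 to 3867646 on chromosome III and ranked 73, with a signal of 193.9. It ranked 95 with a signal of 98.3 in replicate 1 and 73 with a signal of 93.6 in replicate 2. These were the narrowest peaks of the group, at 161 and 149 bp, whereas the other 14 had a width of 340 bp. Both genes were thus in the top 100 of every list.

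A second step was formed by rpl-14 and rps-12. The rpl-14 peak, on chromosome I from 9688721 to 9689060, had a signal of 124.3 and rank 214, and it ranked 176 in replicate 1 and 309 in replicate 2. The rps-12 peak, on chromosome III from 5678954 to 5679293, ranked 216 with a signal of 124.0, and it ranked 210 and 228 in replicates 1 and 2. The remaining 12 peaks had signals from 48.4 to 88.0. Among them were those of rpl-11.2, whose protein binds the smallest ribosomal RNA of the large subunit, with 88.0, rps-19, whose human counterpart is mutated in Diamond-Blackfan anaemia, with 84.8, and rpl-15 with 77.4. They continued through rpl-20 with 75.4, rpl-35, a protein at the exit of the peptide tunnel, with 72.5, rpl-21 with 64.3 and rps-13 with 63.4. Lower still were rpl-12, a protein at the base of the stalk that binds translation factors, with 62.2, rps-23, a protein of the decoding centre, with 60.7, and rpl-43 with 52.6. The weakest were rpl-9 with 50.8 and rps-24 with 48.4, which ranked 1074, near the end of the list. The median signal of the 16 peaks was 73.9 and that of the 523 other promoter peaks 72.1. Among the 538 strongest peaks of the list 8 of 78 members (10.3%) had a promoter summit, against 1.55% of all genes. Large subunit peaks had a median signal of 73.9 and small subunit peaks of 74.1.

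Below the optimal list the group went on without a visible step. The pooled list holds 30000 regions from both replicates together, background included, and 70 of the 78 genes (89.7%) had the summit of such a region in the promoter window, against 39.9% of all genes. Among its 10000 strongest regions it was 55 of 78 (70.5%), against 18.3% of all genes. The best region had a median rank of 3008 in members with one and of 11230 in the other genes with one. Of the genes with a pooled region, 16 of 70 members (22.9%) had an optimal peak, against 7.71% of all such genes. The members next below the optimal list were rpl-38 at rank 1167, rps-26 at 1308, rps-28 at 1343, rps-4 at 1390, rpl-31 at 1399 and rpl-23 at 1523, with signals from 45.7 down to 39.3. On either side of the end of the list stood rps-24 with a signal of 48.4 and rpl-38 with 45.7. The 8 genes with no pooled region were 7 of the large subunit, rpl-16, rpl-25.1, rpl-29, rpl-32, rpl-33, rpl-36 and rpl-42, and 1 of the small subunit, rps-14. A pooled region was found for 40 of 47 large subunit genes (85.1%) and for 30 of 31 small subunit genes (96.8%), a difference that was not tested.

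**Figure D1:**
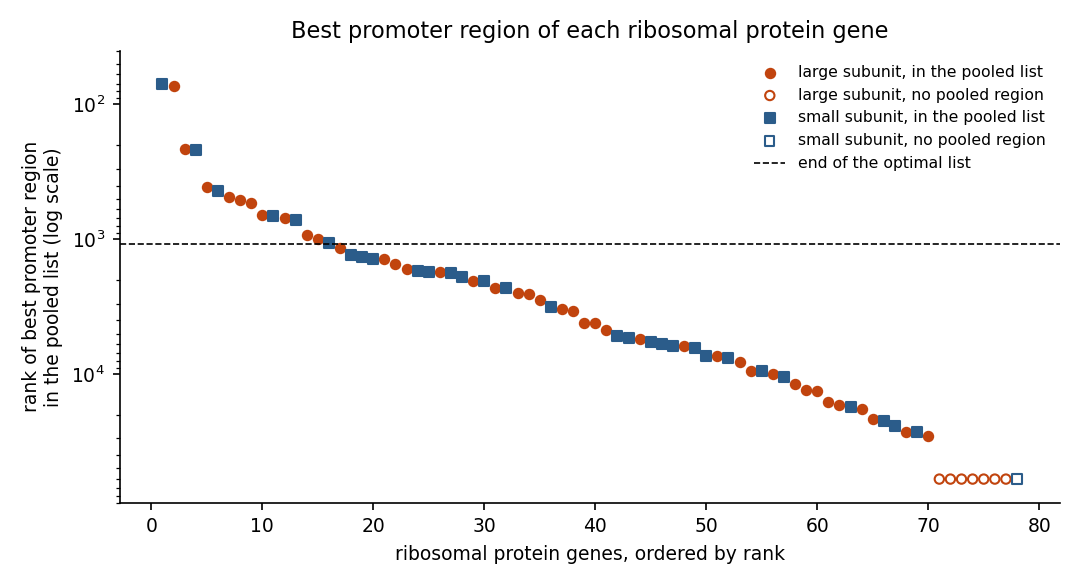
Rank of the best promoter region of each of the 78 ribosomal protein genes in the pooled list, on a log axis with the strongest at the top, ordered by rank. Circles are large and squares small subunit genes, the dashed line marks the end of the optimal list at rank 1076, and open symbols below mark the 8 genes with no pooled region, placed off the scale. The values fall smoothly past the line, with 16 genes above it and 54 below it.

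The replicates gave similar counts and partly different genes. Among the 1076 strongest regions of each replicate's own list, promoter summits were found at 16 members in replicate 1, against 2.99% of all genes, and at 17 members in replicate 2, against 3.08%. In both of these lists there were 11 members, all of them in the optimal list, namely rps-1, rpl-3, rpl-14, rps-12, rpl-11.2, rpl-15, rpl-20, rpl-35, rpl-21, rpl-12 and rps-23. The share of all genes in both was not computed, so the 11 have no background beside them. The optimal list was made from the same replicates, so its holding all 11 is no separate support. The optimal genes rps-13 and rps-19 were in replicate 1's strongest regions only, rpl-43 and rps-24 in replicate 2's only, and rpl-9 in neither, where its regions ranked 2710 and 1589. Outside the optimal list, rpl-38, rps-28 and rps-4 were among the strongest in replicate 1, and rpl-1, rpl-31, rps-18 and rps-20 in replicate 2.

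Ranks in the single replicates varied more than the optimal list shows. Below the leading 4 genes, the ranks in replicates 1 and 2 were 542 and 280 for rpl-11.2, 760 and 311 for rpl-15, and 830 and 418 for rpl-20. They were 520 and 694 for rpl-35, 683 and 912 for rpl-21, and 614 and 1258 for rps-13. For rpl-12 they were 875 and 838, for rps-23 1013 and 829, for rpl-43 2938 and 578, and for rps-24 1407 and 647. Neither replicate ranked all of these genes higher than the other did.

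The only optimal peak missing from a replicate was that of rps-19. Its peak, on chromosome I from 9625903 to 9626242, ranked 436 in the optimal list and 284 in replicate 1 with a signal of 59.5. No region of replicate 2's 30000 overlapped it, and the nearest summit there lay 1156 bp away. The other 15 optimal peaks were overlapped by a region of both replicates. At rps-24 the overlapping region of replicate 1 had its summit 232 bp from the optimal one, while that of replicate 2 lay 4 bp from it. At the median, the replicates' summits lay 10 bp from the optimal summit in both replicates, over 16 peaks in replicate 1 and 15 in replicate 2.

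In the full lists of 30000 regions, 64 members (82.1%) had a promoter summit in replicate 1, against 40.6% of all genes, and 65 (83.3%) in replicate 2, against 40.4%. Both lists held 55 members (70.5%), against 24.0% of all genes. Only rpl-16, rpl-29, rpl-36 and rps-14 had none in either. Across the 55 members in both lists, Spearman's rho of the ranks was 0.58, and across 4736 other genes it was 0.46. These correlations are across genes, which share libraries and in part regions, and they are given as a description.

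**Figure D2:**
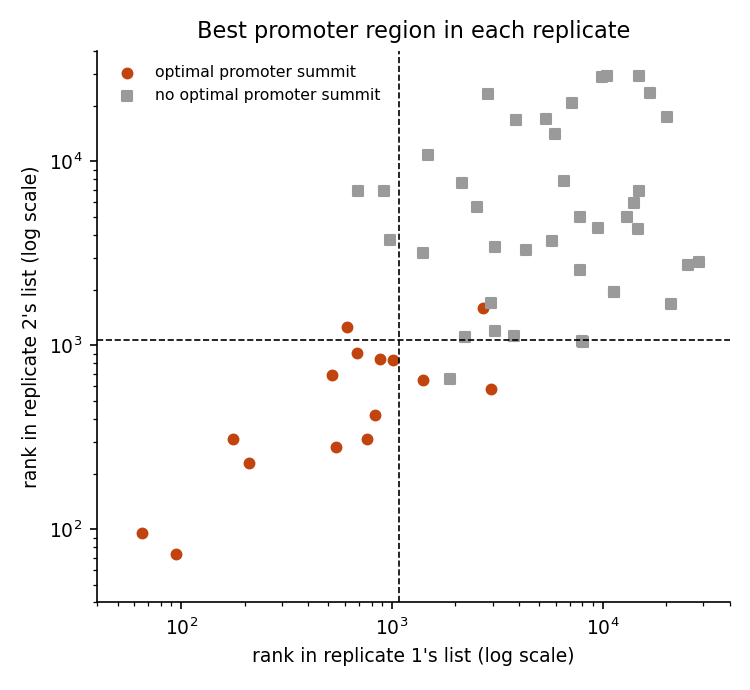
Rank of the best promoter region in replicate 1 (x axis) and in replicate 2 (y axis) for the 55 ribosomal protein genes with a region in both full lists, on log axes. Circles are genes with an optimal peak, squares genes without one, and dashed lines mark rank 1076, so the lower left corner holds the 11 genes among the strongest regions of both replicates.

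Summits sat at a narrow range of distances upstream of the annotated starts. For the 16 optimal peaks the median distance was 285 bp upstream, with quartiles at 362 and 271 bp. The summits of rps-1, rpl-3, rpl-9, rps-23 and rps-19 lay 278, 274, 272, 269 and 277 bp upstream. The widest departures were rpl-12 at 33 bp and rpl-43 at 703 bp. Optimal promoter summits of other genes had a similar median of 267.5 bp but spread more widely, with quartiles at 497 and 129 bp. From 150 to 400 bp upstream, a range set after the positions were seen, there were 12 of 16 member summits and 230 of 598 for other genes (38.5%). The 598 count genes and not separate peaks. A neighbour that shares a member's summit, such as lpd-7 with rpl-9, is among them.

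The same band held most of the weaker regions of the group. Of 54 members with a pooled but no optimal region, 33 (61.1%) had the best summit 150 to 400 bp upstream, against 29.3% of 7891 other genes. All 70 member summits of the pooled list were upstream of the start, while 12.7% of the summits of other genes lay downstream of it. In each replicate's full list the median position was close to this, 293 bp upstream over 64 members in replicate 1 and 298 bp over 65 members in replicate 2.

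**Figure D3:**
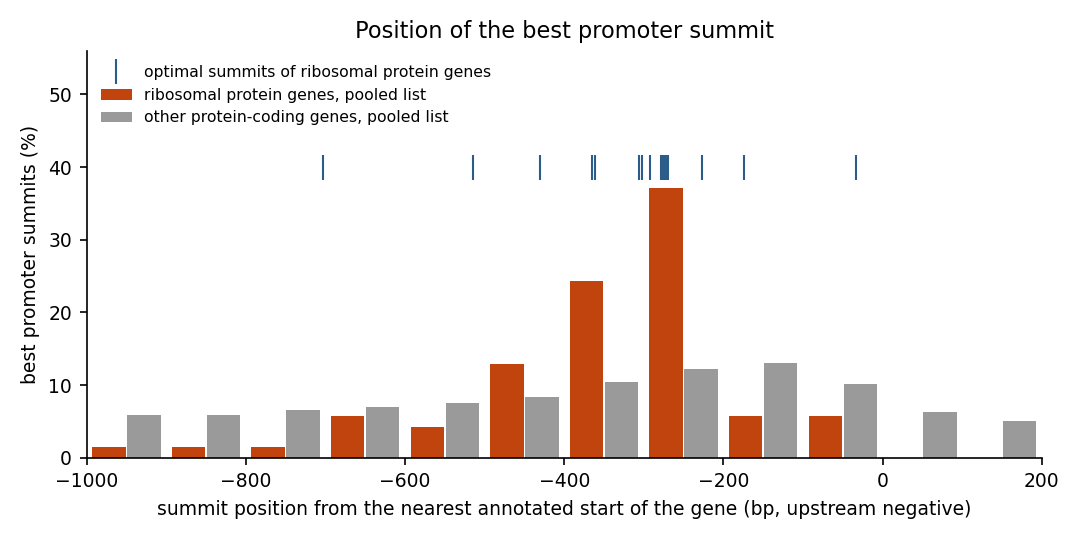
Position of the best promoter summit relative to the nearest annotated start of its gene, in bins of 100 bp, as percent of the genes with a pooled summit. Red bars are 70 ribosomal protein genes, grey bars 7891 other protein-coding genes, and ticks mark the 16 optimal summits. The bin from -300 to -200 bp holds 37.1% of the ribosomal protein genes and 12.3% of the others.

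Of the 16 summits, 15 were in intergenic sequence. The rps-1 summit lay inside a non-coding RNA gene, and the summits of rpl-11.2, rps-13 and rpl-9 lay within 200 bp of one. That makes 4 of 16 member peaks near a small or non-coding RNA gene, against 118 of 523 other promoter peaks (22.6%). The content of G and C within 50 bp of the summit had a median of 51.0% in member peaks and 50.5% in the other promoter peaks.

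Promoters shared with a neighbour were common. A gene was called divergent when a protein-coding gene on the opposite strand began within 1000 bp upstream, which was the case for 47 of 78 members (60.3%) and for 18.7% of all protein-coding genes. Divergent members had an optimal promoter peak in 11 of 47 cases (23.4%), against 4.59% of all divergent genes. Members that were not divergent had one in 5 of 31 cases (16.1%), against 2.73% of all such genes. The members' shares were above the background in both classes. In 3 cases the divergent neighbour was itself a ribosomal protein gene, rpl-24.1 with rps-10, rpl-36 with rps-14 and rpl-39 with rps-30, and none of these 6 genes had an optimal peak. The rpl-36 and rps-14 pair had no pooled region, and each of the other pairs shared 1 pooled region, which therefore counts for both genes.

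The 5 peaks in the window of the ribosomal protein gene alone were those of rpl-3, rpl-14, rpl-11.2, rpl-35 and rps-24. The other 11 (of 16) lay in the window of a further protein-coding gene as well, against 92 of 523 other promoter peaks (17.6%) with more than 1 gene at hand. These 11 are the divergent members with a peak. With or without a peak, 60.3% of members were divergent, against 18.7% of all genes. In 7 of the 11 the neighbour's start was the nearer. The rps-12 summit lay 174 bp from rps-12 and 119 bp from ska-3, a kinetochore gene, and the rps-19 summit 277 bp from rps-19 and 168 bp from hsr-9. The rpl-20 summit lay 302 bp from rpl-20 and 160 bp from Y17G9B.5, and the rpl-43 summit 703 bp from rpl-43 and 218 bp from Y48B6A.1. The rps-13 summit lay 227 bp from rps-13 and 155 bp from nfx-1. For the remaining pair the distances were nearly equal, 269 bp to rps-23 and 265 bp to dpm-3, a gene of dolichol-phosphate mannose synthesis, and 272 bp to rpl-9 and 247 bp to lpd-7, whose homologue in yeast and mammals is a ribosome biogenesis factor.

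Where the ribosomal protein gene was nearer, its partners were ifet-1, a translational repressor gene, 490 bp from the rps-1 summit, lin-54, which encodes the DNA-binding part of the DREAM complex, 360 bp from the rpl-12 summit, and K11H12.8 and C14B9.10, 449 and 333 bp from the summits of rpl-15 and rpl-21. When each summit was given to the gene with the nearest start only, 9 of 78 members (11.5%) kept a peak, against 2.54% of all genes. A shared summit cannot be assigned to either gene from these lists.

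Ribosomal protein genes are also hosts of small nucleolar RNAs (snoRNAs), which guide the modification of ribosomal RNA and are often cut out of introns. Of 78 members, 13 held 1 or more annotated snoRNA genes, 19 in all. The 4 hosts with an optimal peak were rpl-15, rps-12, rps-13 and rps-23, that is 4 of 13 (30.8%), against 12.5% of all protein-coding genes with a snoRNA gene inside. The exact 95% binomial interval for 4 of 13, 9.09 to 61.4%, contains that 12.5%, which itself includes the members. Among members without one it was 12 of 65 (18.5%), against 2.98% of all genes without one. A snoRNA gene within 200 bp of the summit was found for 0 of the 16 member peaks (exact 95% binomial interval up to 20.6%), against 13 of the 523 other promoter peaks (2.49%) and 31 of all 1076 optimal peaks (2.88%). With 16 peaks, 0 is not distinguishable from these shares. The nearest were 254 bp from the rps-12 summit, at F54E7.10 inside rps-12, and 580 bp from the rpl-15 summit, at K11H12.13 inside rpl-15.

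**Figure D4:**
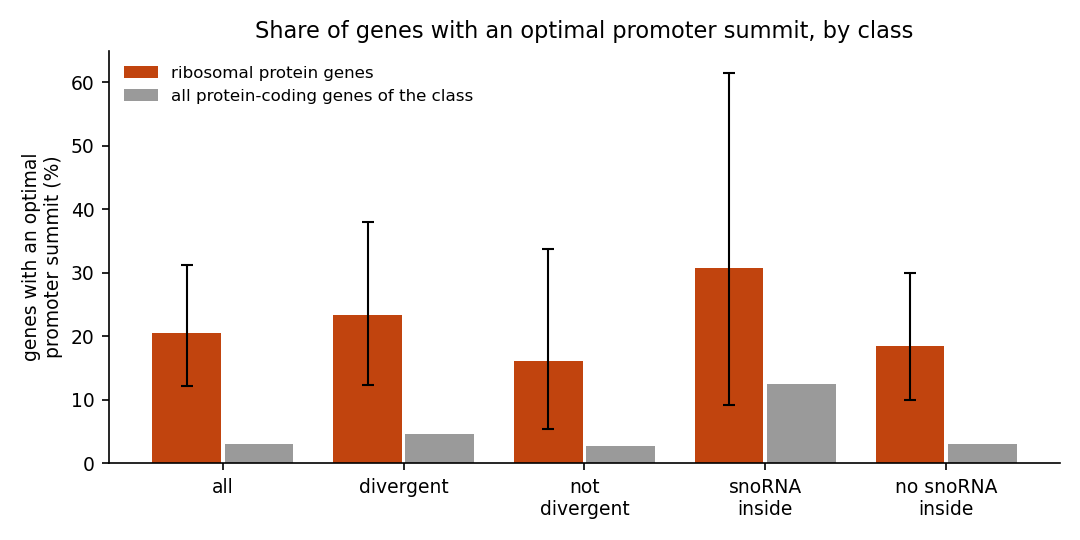
Share of genes with an optimal promoter summit (y axis, percent) for ribosomal protein genes (red bars, with exact 95% binomial intervals) and for all protein-coding genes of the same class (grey bars). The share of ribosomal protein genes was above that of its class in each of the 5 classes, from 16.1% against 2.73% in genes that are not divergent to 30.8% against 12.5% in genes with a snoRNA gene inside. In the class with a snoRNA gene inside, the interval of 9.09 to 61.4% contains the 12.5%.

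Counts by chromosome rest on few genes each. Chromosome III had 7 of its 18 ribosomal protein genes with an optimal peak, against 4.02% of all genes there, and chromosome IV 5 of 17, against 2.65%. Chromosome I holds the most members, and 2 of 23 had a peak, against 2.92%. For chromosome II it was 1 of 10, against 2.64%, for V 0 of 8, against 1.96%, and for X 1 of 2, against 5.42%. With so few genes each, the differences between chromosomes were not tested.

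Short words were searched at the summits. CACGTG, on either strand within 50 bp of the summit, was found in 1 of the 16 peaks, that of rpl-14, against 108 of 523 other promoter peaks (20.7%). GAGAGA was found in 1 of 16, at rps-1, against 34.6% of the others. AGACGCAG, a word of 15.9% of all optimal peaks, was found in 0 of 16, against 17.4% of the others. The related E-box CACATG was found in 2 of 16, at rpl-14 and rpl-9, against 9.18% of the others. The exact 95% binomial interval reaches up to 30.2% for 1 of 16 and up to 20.6% for 0 of 16. The share in the other promoter peaks lay inside that interval for CACGTG and AGACGCAG, and above it for GAGAGA.

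All words of 6 and 8 letters were then counted in the 16 windows of 101 bp, with reverse complements merged. The most frequent words of 6 letters were ACCGTA and ACACTC, each in 9 of 16 windows, against 4.21% and 15.7% of the other promoter peaks. The most frequent word of 8 letters was TACGGTAA, whose reverse complement contains ACCGTA, in 6 of 16 windows, against 7 of 523 (1.34%). These words were picked because they were frequent in the same windows, so their counts there are a description and carry no test. The 6 windows with TACGGTAA are given below with that word in capitals on whichever strand it lies, followed by rpl-15, which has ACCGTA without the longer word, in capitals, and rps-12, which has none of the 3 words. ACACTC is not marked. Each reads from 5′ to 3′ along the strand of the ribosomal protein gene, is centred on the summit, and was taken from the RefSeq genome of WBcel235 (ce11).
rps-1, chrIII:4475590-4475690, plus strand: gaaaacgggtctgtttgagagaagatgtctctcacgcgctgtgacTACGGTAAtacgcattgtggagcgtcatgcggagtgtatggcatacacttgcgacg
rpl-3, chrIII:3867530-3867630, plus strand: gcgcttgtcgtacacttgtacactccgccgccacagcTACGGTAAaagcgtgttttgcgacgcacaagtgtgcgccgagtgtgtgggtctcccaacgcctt
rpl-11.2, chrX:2242929-2243029, minus strand: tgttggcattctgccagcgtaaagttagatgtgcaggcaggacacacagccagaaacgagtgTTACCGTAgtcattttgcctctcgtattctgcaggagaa
rpl-20, chrIV:4750030-4750130, minus strand: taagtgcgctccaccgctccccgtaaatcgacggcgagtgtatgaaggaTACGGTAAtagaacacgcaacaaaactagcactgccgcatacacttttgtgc
rpl-21, chrIII:8130469-8130569, minus strand: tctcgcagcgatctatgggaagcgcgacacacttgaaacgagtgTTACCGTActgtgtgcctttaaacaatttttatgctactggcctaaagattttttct
rps-23, chrIV:12391272-12391372, minus strand: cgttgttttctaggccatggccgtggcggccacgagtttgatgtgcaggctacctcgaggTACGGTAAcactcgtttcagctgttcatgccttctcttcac
rpl-15, chrIV:654891-654991, minus strand: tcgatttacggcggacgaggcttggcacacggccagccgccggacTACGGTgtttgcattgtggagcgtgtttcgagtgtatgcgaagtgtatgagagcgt
rps-12, chrIII:5679074-5679174, plus strand: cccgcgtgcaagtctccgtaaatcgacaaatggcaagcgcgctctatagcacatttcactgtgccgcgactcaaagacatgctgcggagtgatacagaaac

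In these 6 windows TACGGTAA lay 255 to 345 bp upstream of the annotated start, on the strand of the gene in 4 and on the opposite strand in 2. The 9 windows with ACCGTA were these 6 and those of rpl-14, rpl-15 and rpl-43. Of the 9 windows with ACACTC, 7 also had ACCGTA. All 6 windows with TACGGTAA held ACACTC as well. In the windows of rpl-11.2, rpl-21 and rps-23 the words overlapped, the last A of TACGGTAA being the first A of ACACTC. The counts of these words are therefore not separate there.

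The ribosomal protein genes without an optimal peak were not used to pick the words. In the 500 bp upstream of the farthest annotated start, 27 of these 62 genes (43.5%) had ACCGTA, against 13.8% of all other protein-coding genes, and 9 of the 16 genes with a peak (56.3%) had it. TACGGTAA was in 6 of the 62 (9.68%), against 1.96% of other genes, and in 7 of the 16 (43.8%). ACACTC was in 15 of the 62 (24.2%), against 15.7% of other genes, and in 10 of the 16 (62.5%). CACGTG was in 0 of the 62 and 1 of the 16, against 8.65% of other genes. GAGAGA, which few member summits had, was in 25 of the 62 promoters (40.3%) and 5 of the 16 (31.3%), against 29.95% of other genes. Divergent neighbours read the same sequence, so a word can count for 2 genes of the group.

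The best pooled regions of those genes were searched as well. Over 52 separate regions, ACCGTA lay within 50 bp of the summit in 13, against 2.82% of 6430 such regions of other genes below the optimal list. The 13 were at rpl-5, rpl-6, rpl-7, rpl-19, rpl-34, rpl-36.A, rpl-38, rps-7, rps-9, rps-11, rps-20, rps-25 and rps-29. ACACTC was in 9 of 52 (17.3%), against 3.17%. TACGGTAA was in 2 of 52 (3.85%, exact 95% binomial interval 0.47 to 13.2), at rpl-19 and rpl-34, against 0.311%. CACGTG was in 1 of 52, against 2.94%, and GAGAGA in 4 of 52 (7.69%), against 8.23%. The regions of members and of other genes were not matched for rank. Over all genes with a pooled region, the best region had a median rank of 3008 in members and 11230 in other genes. In the stronger optimal promoter peaks of other genes, ACACTC was in 15.7%, ACCGTA in 4.21% and TACGGTAA in 1.34%. For ACACTC, the 17.3% of the members' weaker regions is thus near the share in those stronger peaks. A word is a match of letters and does not show which protein was bound there.

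**Figure D5:**
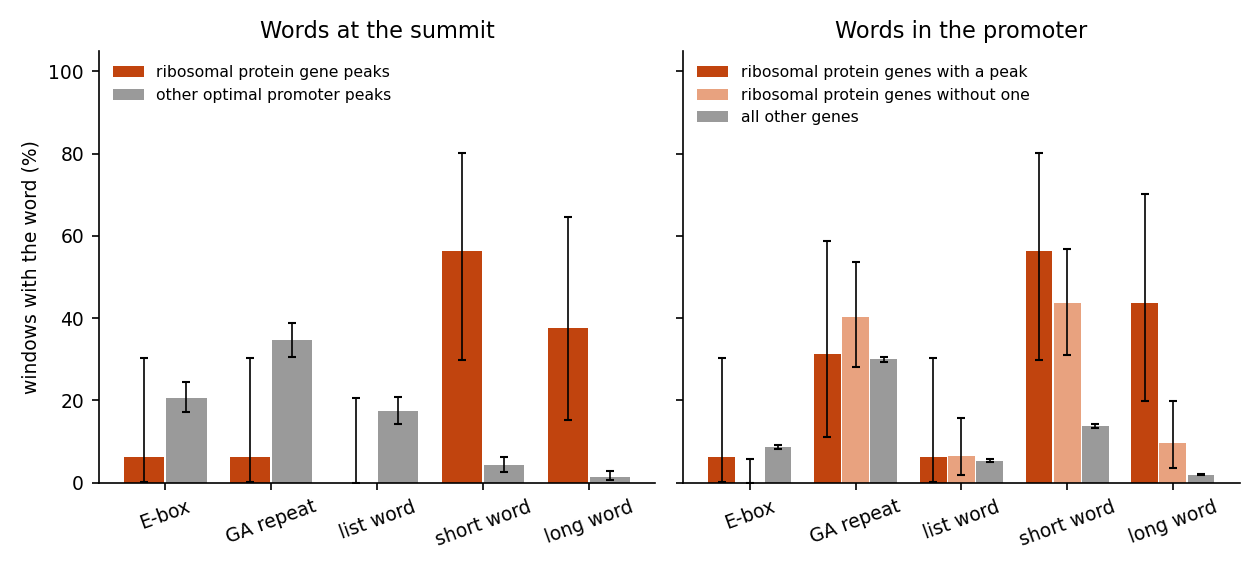
Share of windows that hold a word (y axis, percent, with exact 95% binomial intervals), at summits on the left and in the 500 bp upstream of the start on the right. The E-box is CACGTG, the GA repeat GAGAGA, the list word AGACGCAG, the short word ACCGTA and the long word TACGGTAA. ACACTC is not drawn. Ribosomal protein genes exceed the other genes for the short and the long word in both panels, the words having been picked from the 16 peaks of the dark red bars, and fall below the other promoter peaks for the first 3 words on the left.

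Related genes were counted by lists of names. Of 9 further symbols for proteins of the cytosolic ribosome, 6 matched a gene, the stalk proteins rla-0, rla-1 and rla-2, the fusions with ubiquitin or a ubiquitin-like protein ubq-2 and ubl-1, and rack-1. An optimal promoter peak was found for 0 of the 6, beside a background of 3.07%, so that so few genes give no contrast with it. A pooled region was found for 5 of 6 (83.3%), beside 39.9% of all genes, at ranks 1331 for ubq-2, 2301 for rla-2, 2356 for rack-1, 2969 for rla-0 and 4476 for ubl-1, with summits 478, 250, 345, 313 and 212 bp upstream.

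Mitochondrial ribosomal proteins, which serve a separate ribosome, had an optimal promoter peak at 1 of 70 genes (1.43%), mrps-7 with a signal of 99.4 at a summit it shares with Y57G11C.3, beside the background of 3.07%, and a pooled region at 34 (48.6%), beside 39.9%. Of 31 ribosome biogenesis genes 2 (6.45%) had an optimal peak, beside 3.07% of all genes. They were lpd-7, from the peak it shares with rpl-9, and larp-1, an RNA-binding protein gene, with a signal of 52.8. The window of wip-1 holds the larp-1 summit as well, 678 bp from larp-1. A pooled region was found for 21 of these 31 genes (67.7%), beside 39.9%. Of 13 genes that control growth and the synthesis of ribosomes, larp-1 was again the only gene with an optimal peak (7.69%), beside 3.07%. A pooled region was found for 9 of them (69.2%), beside 39.9%. With 1 or 2 optimal peaks in a list, these shares were not tested.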

How the data were processed

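The members, gene lists and comparisons were chosen with earlier results of these data known. Per the labels, chromatin of both replicates was sonicated. Per the deposited text files, each replicate's list was made from its alignments and 1 further file, and the pooled and optimal lists from both replicates. Not given in the sources used here: aligner, peak caller, reproducibility threshold. The deposited signal value of each region, of unstated scale, ranked regions within a list, and the authors' −log10 q-value was not used. The ce11 lists were read, and the ce10 lists were not used. No read counts were given, so depth is unknown.

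From the files, summits were placed against annotated starts of Ensembl 115 with Python 3.11.15, and intervals were computed with scipy 1.17.1. The placement was checked on planted summits. Sequence came from the RefSeq genome of WBcel235. Alternatives changed the window, the starts, the list and the distances. Named genes were all members with an optimal peak, the next 6 by pooled rank, up to 6 without a pooled region, genes sharing a member's peak, and up to 4 of each related list. All 8 members without a pooled region are given, and the further members, the related ribosomal proteins and the words of the text were named after their values were seen.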

Additional observations from a re-analysis of the deposited data

How the results depend on the processing

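The 16 genes with an optimal peak, against 3.07% of all genes, stayed 16 in number with the wider of the other promoter windows, against 4.3%. They also stayed 16 with the farthest start only, against 2.65%, and with region overlap in place of the summit, against 3.34%. In the narrower window of 500 bp upstream to 100 bp downstream they were 14, against 2.29%. The share of all genes thus moved with the setting while the members' count moved little. Replicate 1's strongest regions gave 16 genes and replicate 2's 17, with a median position 291.5 and 282 bp upstream. Among the 538 stronger optimal peaks the count was 8 genes, against 1.55% of all genes. The median signal was 106, since fewer and stronger peaks were used. Of the 8 genes, 5 were of the large and 3 of the small subunit, and 5 were divergent. The summit was in the windows of 2 or more genes for 5, and nearest to the gene's own start for 5. In the whole list these counts were 10, 6, 11, 11 and 9 of 16. They are given without a background share for that part of the list. In that narrower window the median signal was 76.4 and the median position -277.5 bp. With divergence limited to 500 bp, 5 of the genes with a peak were divergent. That limit also leaves fewer members in the class, since the 47 divergent members had a median distance of 534 bp between the starts. The share within the smaller class and that of all genes were not computed, so the count of 5 does not show a change in share. A snoRNA gene lay within 500 bp of 1 summit, that of rps-12. Of 78 alternatives, the other 67 left their value within 1.5 times the count or within the spread of the replicates. No paired analysis was possible because both replicates belong to 1 group. Without read depth, a region missing at a weak promoter may be absent or undetected, and these lists cannot tell which.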

Other observations

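The word TACGGTAA, picked from peaks at ribosomal protein genes, was within 50 bp of the summit of 13 of all 1076 optimal peaks, and 6 of these were the ribosomal protein gene peaks. The other 7 were at serp-1.1 with a signal of 252.8, cox-5A, a subunit gene of cytochrome c oxidase, with 134.9, the shared promoter of pdtf-1 and T26A8.4 with 131.1, and unc-16, a gene of axonal transport, with 90.0. They continued with ntl-2, a subunit gene of the CCR4-NOT complex, at 73.5, sqd-1 at 58.2 and gldi-8 at 49.01. The genome holds 3427 copies of the word on the nuclear chromosomes. These genes were named after their values were seen.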
